A study of Ovis aries with 2 samples.

Results

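Prostaglandin synthesis and breakdown was followed through 4 genes, PTGS2, PTGDS, HPGDS and HPGD, which are 4 of the 21890 genes listed for both libraries. Each symbol matched 1 row: PTGS2 (ENSOARG00020015961), PTGDS (ENSOARG00020000264), HPGDS (ENSOARG00020020743) and HPGD (ENSOARG00020028713). The genes were chosen by name, with earlier results of these data known, and their levels were described for each library and each cell class. Sheep aged 1 to 2 years gave 1 library of native carotid artery, titled an aorta in one label, and 1 library of a graft titled H2R5-ATEV from a series on cell-free vascular grafts. Both tissues were taken out at 12 weeks, kept in endothelial growth medium, and digested by filling the lumen with enzymes. The number of animals behind each library is not in the labels, nor whether the artery came from a grafted animal. With 1 library per tissue no test of native against graft was possible, so ratios carry intervals for counting error alone, and animal, tissue and library preparation cannot be told apart.

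Prostaglandins are short-range lipid signals made from arachidonic acid that phospholipases release from membranes. Cyclooxygenases turn it into prostaglandin H2, which terminal synthases convert into prostaglandin D2, prostaglandin E2, prostacyclin or thromboxane. In arteries, prostacyclin from endothelium relaxes smooth muscle and restrains platelets, while thromboxane does the opposite. PTGS2 encodes the inducible cyclooxygenase, and PTGDS and HPGDS encode the lipocalin-type and the hematopoietic prostaglandin D synthase. HPGD encodes 15-hydroxyprostaglandin dehydrogenase, which starts prostaglandin breakdown.

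After filtering, 10080 native cells with a median of 1512 unique molecular identifiers (UMIs) and 1075 graft cells with a median of 20640 UMIs were kept, a depth gap that runs through every comparison. The libraries shared 7 barcodes, 4 of them among kept cells, and the 4 graft cells held 2 PTGDS UMIs and none of the other members. Clusters were named from marker lists, and each class name stands for cells with those markers. Native and graft held 5027 and 208 endothelial-like, 132 and 195 smooth muscle-like, 846 and 28 fibroblast-like, 475 and 308 macrophage-like, and 1120 and 71 T or NK-like cells. A further 11 native and 8 graft cells were mast-like. Clusters without a name held 2424 native and 204 graft cells. All 11 matched endothelial, 10 macrophage and 12 fibroblast markers had at least 10 UMIs in their own class in both libraries. So did 10 of 11 native and all 11 graft smooth muscle markers and 9 of 10 T or NK markers in each library. Clusters were named from these markers and other lists passed too, so the counts cannot check identity. Graft smooth muscle-like cells also had all 11 endothelial, 12 fibroblast and 10 macrophage markers at that count. Levels are UMIs per 1000000 UMIs of a class (CPM) with exact 95% Poisson intervals. Folds are ratios of these levels, while log2 ratios have 5 CPM added to both sides. Summed fibroblast markers were 8260 CPM in native and 24512 CPM in graft smooth muscle-like cells. Summed smooth muscle markers there were 9574 and 12620 CPM. The part of the fibroblast markers in levels given for smooth muscle was not tested.

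PTGS2 was high in native endothelium, smooth muscle and fibroblasts, and in the graft it was lower in endothelium, smooth muscle and macrophages but not in fibroblasts. In endothelial-like cells PTGS2 stood at 429 CPM (419 to 438) in the native artery and at 39.3 CPM (35.5 to 43.5) in the graft, 10.9-fold lower (9.84 to 12.1). In macrophage-like cells it was 172 CPM (162 to 182) against 22.3 CPM (19.7 to 25.2), 7.69-fold lower (6.72 to 8.82). In smooth muscle-like cells it was 327 CPM (287 to 370) against 95.7 CPM (89.9 to 102), 3.42-fold lower (2.96 to 3.93). The intervals of native and graft did not overlap in any of these classes. With equal weight for each cell the gap was smaller, 379 against 87.0 CPM in endothelium (log2 ratio -2.06) and 190.0 against 48.0 CPM in macrophages (-1.88). Without doublet removal just 36 graft cells were called macrophages, and the macrophage log2 ratio was -0.44.

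Fibroblast-like cells went the other way, at 460 CPM (445 to 476) in the native artery and 747 CPM (659 to 843) in the graft, 1.62-fold higher (1.43 to 1.84) and short of the 2-fold mark. The graft value came from 262 UMIs in 17 of 28 cells, and the richest cell held 23.3% of them. Without the richest cell of each library the log2 ratio was 0.43 in place of 0.69. The value also depended on which graft cells were called fibroblasts: with each library clustered by itself, 49 graft cells held 267 PTGS2 UMIs, the graft level was 207 CPM and the log2 ratio was -1.15. Assigning cells by their own markers gave 58 graft cells, 176 CPM and a log2 ratio of -1.34.

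The order of classes by PTGS2 differed between the libraries. In the native artery fibroblasts were followed by endothelium, smooth muscle, mast-like cells at 234 CPM (121 to 408), macrophages and T or NK cells at 32.8 CPM. The mast-like interval overlapped those of smooth muscle and macrophages. In the graft fibroblasts were followed by smooth muscle, mast-like cells at 94.1 CPM (48.6 to 164), endothelium, T or NK cells at 37.9 CPM (24.0 to 56.8) and macrophages. Graft mast-like cells overlapped smooth muscle, and graft T or NK cells overlapped mast-like cells, endothelium and macrophages. No neutrophil-like cell held a UMI in either library, 0 of 12 native and 0 of 39 graft cells, which allows shares of cells with a UMI of up to 25.0% and 7.69% at median depths of 1722.5 and 1954 UMIs and sets no limit on cells expressing the gene. T or NK cells were taken as the class that should carry little PTGS2; in the graft 1 T or NK cell held 19 of the class's 23 UMIs.

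PTGS2 differed between clusters of graft endothelium. A cluster of 29 graft and 905 native endothelial-like cells had 316 CPM in its graft and 377 CPM in its native cells, a ratio of 0.837 (0.642 to 1.07). Of the 65 graft UMIs, 1 cell held 36.9% and 3 cells held 66.2%. The other large graft cluster, 175 endothelial-like cells with a median of 41925 UMIs, had 33.4 CPM. PTGS2 was seen in 17 of the 29 graft cells of the first cluster and in 37 of the 175 of the second, although the second was deeper. Within the shared cluster the log2 ratio was -0.25, against -3.29 over all endothelial-like cells. The 29 graft cells also carried more PLA2G4A, the phospholipase that releases arachidonic acid, at 102 CPM against 15.6 CPM in the 175, and more PTGIS, the prostacyclin synthase, at 238 against 126 CPM. ALOX12, a lipoxygenase that acts on the same substrate, was lower in the 29 cells at 19.4 CPM than in the 175 at 76.9 CPM. Summed macrophage markers were 369 CPM in the 29 cells and 95.3 CPM in the 175, and summed endothelial markers 3270 and 5176 CPM; their part in these levels was not tested.

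Macrophages showed a similar division. In a cluster of 32 graft and 387 native macrophage-like cells PTGS2 was 133 CPM in graft and 182 CPM in native cells, a ratio of 0.733 (0.576 to 0.922), but 259.5 and 201 CPM with equal weight for each cell. The cluster of 267 graft macrophage-like cells, led by LPL, FABP4, GPNMB and TREM2, had 16.0 CPM. Over all macrophage-like cells the log2 ratio of -2.69 therefore became -0.43 within the shared cluster. In fibroblasts the shared cluster of 26 graft and 590 native cells gave 777 against 468 CPM, a ratio of 1.66 (1.46 to 1.88). Smooth muscle had no cluster with at least 20 cells of both libraries.

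Depth bears on the share of cells with PTGS2. A PTGS2 UMI was seen in 41.8% of native and 26.4% of graft endothelial-like cells, and in 26.7% and 6.49% once cells were thinned to 1000 UMIs. Thinning leaves out shallower cells and kept 3519 of 5027 native and 199 of 208 graft endothelial-like cells, 98 of 132 and all 195 smooth muscle-like cells, 716 of 1120 and 70 of 71 T or NK-like cells, 455 of 475 and all 308 macrophage-like cells, and 771 of 846 and 27 of 28 fibroblast-like cells. In macrophage-like cells the shares were 43.4% and 18.8%, or 12.5% and 3.23% after thinning. In smooth muscle-like cells the unthinned shares were 37.9% and 54.9%, the reverse of the CPM, and 20.6% and 7.69% after thinning. Fibroblast shares were 60.2% and 60.7%, or 27.4% and 32.6% after thinning. T or NK cells showed 10.4% and 7.04%, or 3.26% and 1.08%.

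PTGS2 is an early response gene, so 15 matched genes of that kind were read beside it. Their summed level was 14493 CPM in native and 6176 CPM in graft endothelium, 14227 and 6948 CPM in smooth muscle, 21145 and 12152 CPM in macrophages and 14253 and 11310 CPM in fibroblasts. In endothelium 14 of the 15 had at least 10 UMIs in all and at least 5 CPM in 1 library. Of these 14, 6 were at least 2-fold lower and 3 higher in graft endothelium, where 8.1% of 11096 genes were lower and 9.97% higher. FOS was lower at 1162 against 4698 CPM, JUN at 957 against 2728 CPM and EGR1 at 405 against 1128 CPM, while NFKBIA was higher at 790 against 266 CPM and TNFAIP3 at 145 against 44.2 CPM. In graft endothelium the sum was 3916 CPM in the 29 cells with much PTGS2 and 6212 CPM in the 175 with little. In graft macrophages it was 16848 CPM in the shared cluster, with more PTGS2, and 11938 CPM in the cluster led by LPL. The part of handling and digestion in these levels was not tested.

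**Figure D1:**
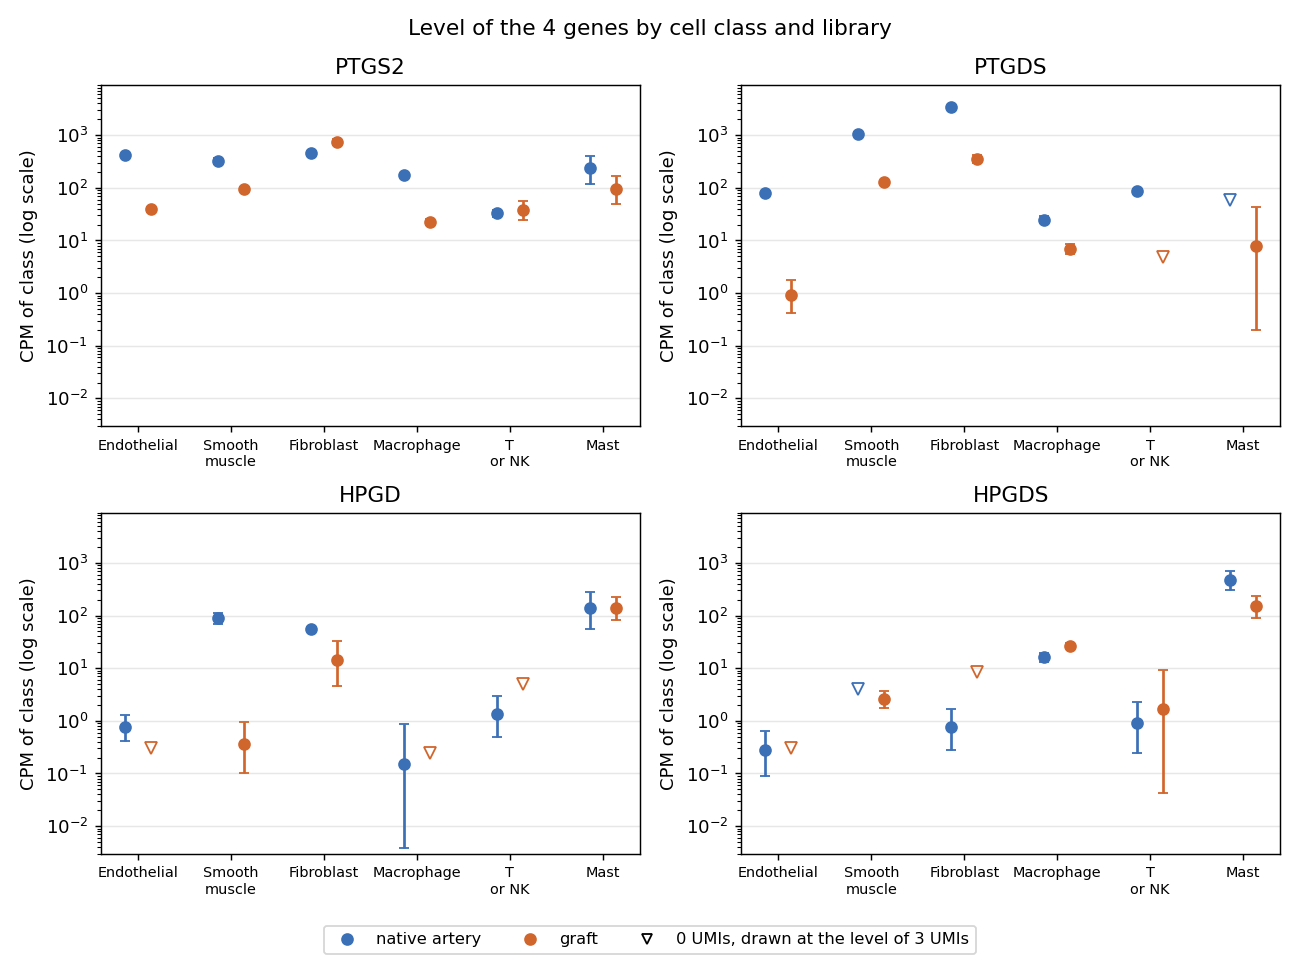
CPM (log scale) of each gene in 6 cell classes, native artery in blue and graft in orange, with exact 95% Poisson intervals; open triangles mark 0 UMIs and are drawn at the level that 3 UMIs would give. PTGS2 is 10.9-fold lower in graft than native endothelium, and PTGDS is 9.70-fold lower in graft than native fibroblasts.

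Among the named classes, PTGDS marked the native fibroblasts and, at a lower level, the native smooth muscle, and was lower in the graft in both. Fibroblast-like cells had 3428 CPM (3387 to 3470) in the native artery and 354 CPM (294 to 422) in the graft, 9.70-fold lower (8.13 to 11.7). Smooth muscle-like cells had 1071 CPM (998 to 1147) and 128 CPM (122 to 135), 8.34-fold lower (7.64 to 9.11). With equal weight for each cell, smooth muscle had 850 and 228 CPM, a log2 ratio of -1.87 against -3.01. Native fibroblasts, 8.39% of the native cells, held 84.6% of the native PTGDS UMIs. An unnamed native cluster of 1426 cells had 1289 CPM (1226 to 1354), above smooth muscle, from 1581 UMIs in 52.4% of its cells. Its best list was fibroblast, but it also had endothelial markers, and its median depth was 738 UMIs. The part of free RNA in its level was not tested. With unnamed clusters joined to their best list, the fibroblast log2 ratio was -3.14 in place of -3.26. In the graft most PTGDS UMIs lay in the smooth muscle-like class, which held 86.0% of them, 18.1% of the cells and 30.7% of all graft UMIs. This class also carried fibroblast markers, at a median of 16.7 UMIs per 1000 in its 122 cells with PTGDS and 20.6 in the 73 without.

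Few graft fibroblasts carried PTGDS. It was seen in 4 of 28 cells (14.3%, exact Clopper-Pearson interval 4.03 to 32.7%), which held 61, 35, 25 and 3 UMIs. In the native artery it was seen in 681 of 846 cells (80.5%, 77.7 to 83.1%). Thinned to 1000 UMIs the shares were 11.4% and 68.1%, and the graft stayed below the native artery. The richest graft cell held 49.2% of the class's UMIs and lay in another cluster than the other 3. Within the fibroblast cluster that both libraries shared, PTGDS stood at 187 CPM in 26 graft cells against 3526 CPM in 590 native cells, a ratio of 0.0530 (0.0407 to 0.0678). In smooth muscle 62.6% of graft and 61.4% of native cells held a UMI, or 15.4% and 46.2% after thinning.

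Joint detection of PTGS2 and PTGDS was counted in deeper cells. Of 550 native fibroblast-like cells with at least 5000 UMIs, 369 held both, 37 PTGS2 alone and 125 PTGDS alone. PTGDS was thus seen in 90.9% of native fibroblasts with PTGS2 and in 86.8% of those without. Of 24 such graft cells, 15 held PTGS2, 3 held PTGDS and 0 held both, too few with PTGDS to read an order from. In smooth muscle of that depth, 30 of 43 native and 73 of 194 graft cells held both.

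PTGDS in the other classes was mostly higher in shallower clusters. Native endothelial clusters with medians of 724 and 1932 UMIs had 357 and 306 CPM, while those with medians of 3685 and 7999 UMIs had 35.8 and 19.8 CPM; an endothelial cluster with a median of 1437 UMIs had 44.6 CPM. T or NK clusters with medians of 774.5, 5733 and 8655 UMIs had 488, 25.2 and 40.3 CPM. In native cells of at least 5000 UMIs, PTGDS was 23.4 CPM in endothelium, 17.3 CPM in macrophages and 28.3 CPM in T or NK cells. It was 3483 CPM in fibroblasts and 1185 CPM in smooth muscle. The endothelial cluster with a median of 1932 UMIs kept 354 CPM in its 25 cells of that depth, from 58 UMIs in 52.0% of them. The 911 such cells of the cluster with a median of 7999 UMIs had 16.9 CPM and 14.4%. The richest cell of the former cluster, at any depth, held 35 UMIs. Whether that cluster expresses the gene was not tested. Macrophages were taken as the class that should lack the gene: 23.2% of them held a UMI at a median depth of 13081 UMIs, against 80.5% of fibroblasts at 8931.5 UMIs. The levels of 17.3 to 28.3 CPM were not read as expression, and the part of free RNA in them was not tested.

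The same classes held less PTGDS in the graft. Endothelium had 0.922 CPM (9 UMIs), macrophages 6.89 CPM (83 UMIs) and T or NK cells 0 of 607182 UMIs. With that 0 set to 3 counts, graft T or NK cells were at 4.94 CPM, 17.8-fold below the native 87.9 CPM. The exact interval of the graft value reaches 6.08 CPM, and native T or NK cells of at least 5000 UMIs had 28.3 CPM. The 20 graft macrophage-like cells with PTGDS had a median of 1.45 fibroblast marker UMIs per 1000, against 0.161 in the 288 without. Among cells of at least 5000 UMIs the macrophage log2 ratio was -0.91, against -1.32 over all cells, and that of endothelium -2.26 against -3.83. These ratios were not read as changes in expression.

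**Figure D2:**
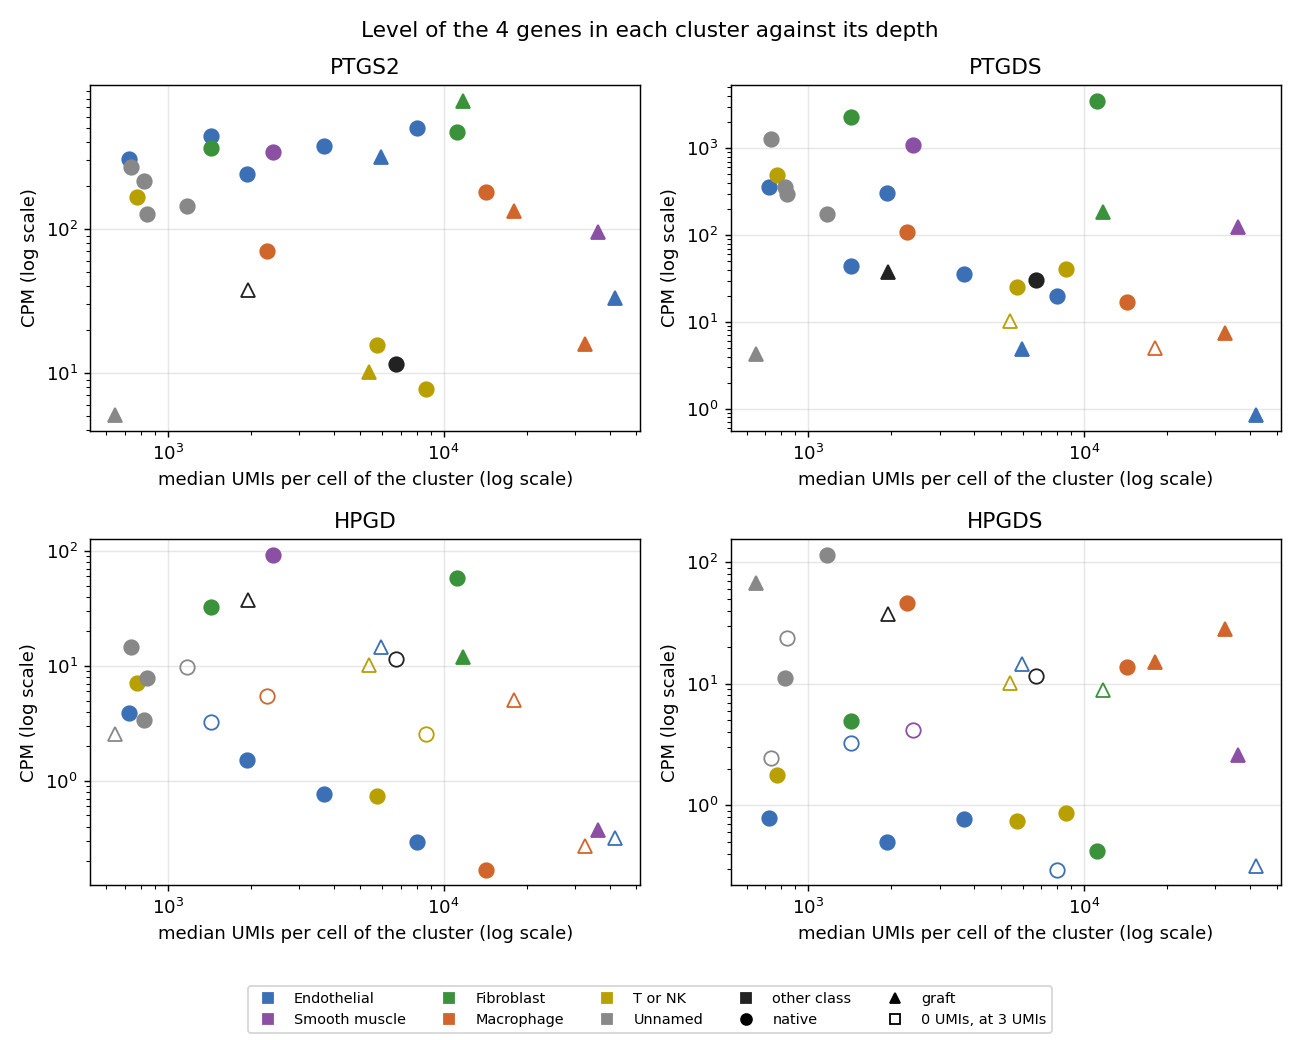
CPM (log scale) of each gene in every cluster and library with at least 20 cells, against the cluster's median UMIs per cell (log scale); circles are native, triangles graft, colours are classes, and open symbols have 0 UMIs. PTGDS reaches 488 CPM in a native T or NK cluster with a median of 774.5 UMIs but stays at 40.3 CPM or less in native endothelial, macrophage and T or NK clusters with medians of 3685 UMIs or more.

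HPGDS belonged to macrophages and mast-like cells. In macrophage-like cells it was 16.3 CPM (13.3 to 19.7) in the native artery and 27.0 CPM (24.1 to 30.1) in the graft, 1.65-fold higher (1.32 to 2.08), from 106 and 325 UMIs. A UMI was seen in 11.8% of native and 30.8% of graft macrophages, or 1.75% and 3.12% after thinning. Smooth muscle was taken as the class that should lack the gene: it held 0 of 755452 native UMIs, which allows up to 3.97 CPM, and 2.60 CPM (1.73 to 3.76) in the graft. The 14 graft smooth muscle-like cells with HPGDS had a median of 100698 UMIs and 3.31 macrophage marker UMIs per 1000, against 33465 UMIs and 0.133 in the 181 cells without. Native fibroblasts had 0.778 CPM and native endothelium 0.273 CPM.

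HPGDS also varied between clusters of macrophage-like cells. Within the shared macrophage cluster HPGDS was 15.2 CPM in graft and 13.6 CPM in native cells, a ratio of 1.11 (0.491 to 2.22). The graft cluster led by LPL and TREM2 had 28.1 CPM (25.1 to 31.4). A native cluster of 86 macrophage-like cells led by cell division genes had 46.0 CPM (29.8 to 67.9), but 3 cells held 68.0% of its 25 UMIs, and with equal weight for each cell the level was 14.8 CPM, against 19.1 CPM in the native cells of the shared cluster. The highest cluster was an unnamed native one of 88 cells led by LYVE1 and F13A1 with 8 raised macrophage markers, at 114 CPM (79.7 to 159) from 35 UMIs. An unnamed graft cluster of 193 barcodes led by ACP5, MMP9 and CTSK had 67.8 CPM (53.8 to 84.4), all 80 UMIs in 8 barcodes of 45303 to 340498 UMIs. The macrophage ratio therefore depended on which clusters were called macrophages: with each library clustered by itself, 74 graft cells kept the name, held 5 HPGDS UMIs and gave a log2 ratio of -1.70 in place of 0.59.

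Mast-like cells had the highest HPGDS of all classes. They were taken one by one as cells with at least 3 of 7 matched mast markers (KIT, CPA3, TPSB2, MS4A2, FCER1A, HDC, GATA2) and at least 10 UMIs of them, a limit set after the data were seen. Clustering had placed all 11 native ones and 6 of the 8 graft ones among smooth muscle, and the other 2 among macrophages. HPGDS was 468 CPM (300 to 696) in the native and 149 CPM (89.7 to 233) in the graft mast-like cells. It was seen in 10 of 11 native and 6 of 8 graft cells, at 0 to 6 UMIs per cell in both libraries. Of the graft cells, 3 had more than 15000 UMIs and carried macrophage or fibroblast markers, and the other 5 had 13 HPGDS UMIs and 473 CPM. Both libraries held under 20 mast-like cells, so no fold is given. Another 5 graft cells, of 40814 to 149572 UMIs, had 10 UMIs or more of just 2 mast markers, and they held 6 HPGDS UMIs.

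Mast-like cells also carried the first cyclooxygenase and the leukotriene arm. PTGS1, the constitutive cyclooxygenase, was seen in 7 of 11 native and 7 of 8 graft cells, at 370 and 110 CPM. ALOX5, the lipoxygenase of leukotriene synthesis, was 214 CPM in native and 118 CPM in graft cells, and its partner ALOX5AP was 468 and 141 CPM. Without the 3 deep graft cells, the graft levels were 364 CPM for PTGS1, 328 CPM for ALOX5 and 182 CPM for ALOX5AP, from 10, 9 and 5 UMIs. PTGDS was seen in 0 of 11 native and 1 of 8 graft mast-like cells. If the mast-like cells were left in their clusters, native smooth muscle HPGDS was 29.7 CPM from 24 UMIs and the smooth muscle log2 ratio was -1.98 in place of 0.60.

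**Figure D3:**
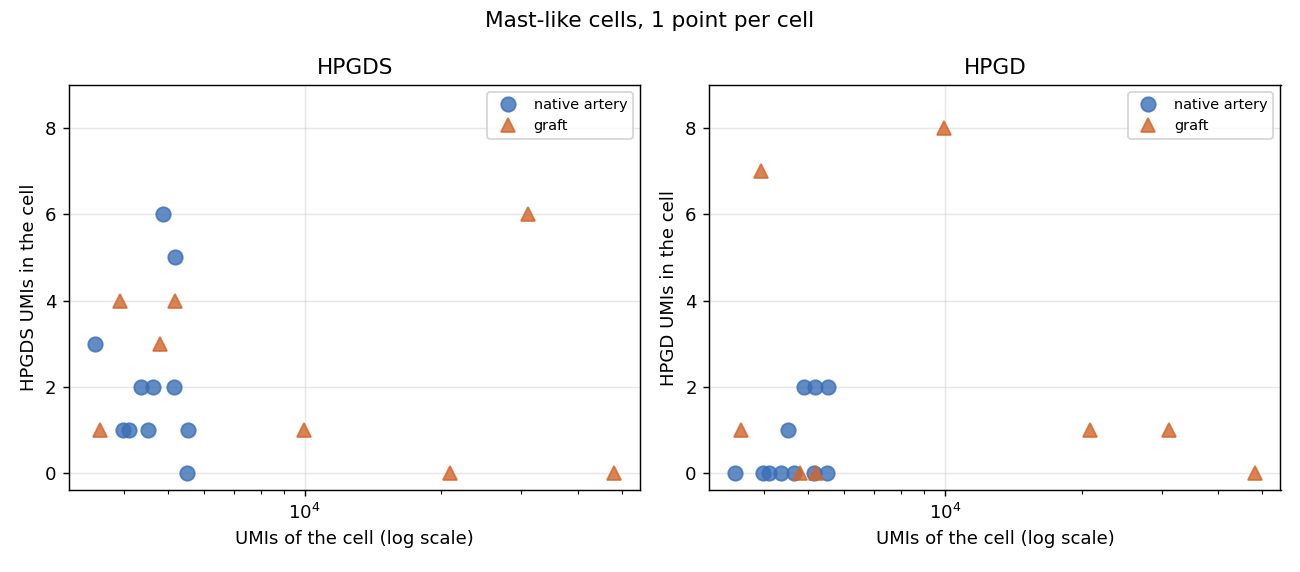
UMIs of HPGDS and HPGD in each of the 11 native (blue circles) and 8 graft (orange triangles) mast-like cells, against the UMIs of the cell (log scale). HPGDS was seen in 10 native and 6 graft cells, and the highest HPGD values, 7 and 8 UMIs, are in 2 graft cells.

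HPGD was a gene of native smooth muscle-like and fibroblast-like cells that was scarce in the graft outside mast-like cells. Smooth muscle-like cells had 88.7 CPM (68.7 to 113) in the native artery and 0.371 CPM (0.101 to 0.950) in the graft, 239-fold lower (89.1 to 902). That rests on 67 UMIs in 22 of 132 native cells and 4 UMIs in 3 of 195 graft cells, although the graft cells had a median of 34877 UMIs against 2417.5. The log2 ratio, which has 5 CPM added to both sides and so is smaller than the fold, was -4.12. The richest native cell held 14 of the 67 UMIs, and without the richest cell of each library the log2 ratio was -3.91. Thinned to 1000 UMIs, 5.10% of native and 0.0499% of graft smooth muscle-like cells held a UMI. The 22 native cells with HPGD had a median of 8.15 fibroblast marker UMIs per 1000, against 4.14 in the 110 without. They were also deeper, at a median of 13182 against 1729.5 UMIs, and the part of fibroblast-like cells in the ratio was not tested.

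In fibroblast-like cells HPGD was 56.0 CPM (50.8 to 61.5) in the native artery and 14.3 CPM (4.63 to 33.3) in the graft, 3.93-fold lower (1.67 to 12.2), with just 5 graft UMIs. It was seen in 200 of 846 native and 3 of 28 graft cells, 23.6% and 10.7%. Native fibroblasts held 78.7% of the native HPGD UMIs. T or NK cells, taken as the class that should lack HPGD, had 1.36 CPM in the native artery and 0 in the graft. Native endothelium had 0.766 CPM (14 UMIs) and macrophages 0.154 CPM (1 UMI), both at or below the T or NK level, and in the graft HPGD was at 0 UMIs in both.

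The 8 graft mast-like cells held 18 of the graft's 27 HPGD UMIs, 66.7%, while making up 0.744% of its cells. Their level was 141 CPM (83.6 to 223), against 136 CPM (54.8 to 281) from 7 UMIs in the native mast-like cells, and the intervals overlap. Without the 3 graft cells of more than 15000 UMIs, the graft level was 582 CPM, from 16 UMIs in 5 cells. In the graft 2 cells held 7 and 8 of the UMIs. Left in their clusters, these cells moved the smooth muscle log2 ratio to -3.80. The order of HPGD in the native artery was mast-like cells, smooth muscle and fibroblasts, and the mast-like interval overlapped both others.

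The members were read against all genes of a class with at least 10 UMIs in all and at least 5 CPM in 1 library, on log2 ratios with 5 CPM added. The members and the pathway lists were chosen with earlier results of these data known. The shares of all genes are therefore given as description and not as a test. In endothelium 2 of the 4 members, PTGS2 and PTGDS, were measured at that level and both were at least 2-fold lower in the graft, where 8.1% of 11096 genes were lower and 9.97% higher. In smooth muscle PTGS2, PTGDS and HPGD were lower, where 9.32% of 11842 genes were lower and 10.8% higher. Scaled by the median ratio of well-counted smooth muscle genes, a shift of -0.23, 6.44% were lower and 14.7% higher, so 69.5% of calls were higher in place of 53.7%; the 3 members stayed lower. In fibroblasts PTGDS and HPGD were lower and PTGS2 was within 2-fold, where 11.7% of 11610 genes were lower and 5.91% higher. In macrophages PTGS2 and PTGDS were lower and HPGDS was within 2-fold, where 3.66% of 10963 genes were lower and 6.74% higher. In T or NK cells PTGDS was lower and PTGS2 was within 2-fold, where 3.33% of 11078 genes were lower and 6.99% higher. The PTGDS ratios of endothelium, macrophages and T or NK cells count here by their size alone and, as above, were not read as changes in expression.

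The rest of the pathway was taken from a list by role, of which 26 prostanoid genes other than the members matched a row. In endothelium 13 of the 26 were measured at the same level, 5 of them at least 2-fold lower and 1 higher, with a median log2 ratio of -0.76 beside 0.01 for all genes tested. In smooth muscle 15 were measured, 5 lower and 3 higher, with medians of -0.46 and -0.05. In fibroblasts 15 were measured, 7 lower and 1 higher, with medians of -0.91 and -0.09. In macrophages 16 were measured, 2 lower and 1 higher, with medians of 0.19 and 0.04. In T or NK cells 15 were measured, 0 lower and 1 higher, with medians of 0.25 and 0.06.

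Upstream of the members, PLA2G4A, the cytosolic phospholipase, was 66.0 CPM in native and 17.6 CPM in graft endothelium. In smooth muscle it was 303 and 60.3 CPM, while in fibroblasts (132 and 105 CPM) and macrophages (39.8 and 48.6 CPM) the libraries lay within 2-fold. PTGS1 was lower in the graft in 4 classes: 226 against 93.1 CPM in endothelium, 73.8 against 22.8 CPM in fibroblasts, 22.5 against 1.95 CPM in smooth muscle and 11.1 against 0.913 CPM in macrophages. The fibroblast value of PTGS1 rested on 8 graft UMIs. In T or NK cells PTGS1 was 26.7 CPM in the native artery and 44.5 CPM in the graft, within 2-fold.

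Among the other terminal synthases, PTGIS was 227 CPM in native and 128 CPM in graft endothelium, within 2-fold, and 297 against 57.1 CPM in smooth muscle, lower in the graft. TBXAS1, the thromboxane synthase, was 8.81 CPM in native and 32.7 CPM in graft endothelium and 45.4 and 35.3 CPM in macrophages. PRXL2B, which makes prostaglandin F2 alpha, was lower in graft endothelium at 5.33 against 22.6 CPM. PTGES2, a prostaglandin E synthase, was 12.7 CPM in native and 18.8 CPM in graft endothelium, within 2-fold. The inducible microsomal prostaglandin E synthase, PTGES, matched no row by its symbol and was not analysed here.

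Downstream of the members, SLCO2A1, the prostaglandin uptake carrier, was 104 and 114 CPM in native and graft endothelium. PTGR1, which acts after HPGD in prostaglandin breakdown, was 168 CPM in native and 45.6 CPM in graft fibroblasts but 40.4 and 66.1 CPM in macrophages. PTGR2, another reductase of that step, was lower in graft endothelium, at 10.3 against 26.3 CPM, and in graft smooth muscle.

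The receptors divided by class. In smooth muscle PTGIR, the prostacyclin receptor, was 35.7 CPM in the native artery and 9.19 CPM in the graft, while PTGER4, a relaxing prostaglandin E2 receptor, was 6.62 CPM (5 UMIs) and 37.9 CPM (408 UMIs). In macrophages PTGER4 was lower in the graft, at 72.4 against 164 CPM. PTGFR, the prostaglandin F receptor, was lower in graft fibroblasts at 34.2 against 112 CPM, and TBXA2R, the thromboxane receptor, at 8.55 CPM (3 UMIs) against 29.9 CPM. PPARG, a nuclear receptor that products of prostaglandin D2 can bind, was at 0 native and 142 graft UMIs in smooth muscle. With the 0 set to 3 counts it was 3.32-fold higher in the graft, and the exact interval starts at 2.66-fold. PPARG was 92.6 CPM in graft macrophages, and the summed macrophage markers of smooth muscle were 159 CPM in the native artery and 1527 CPM in the graft, beside 13253 CPM in graft macrophages. All 10 matched markers had at least 10 UMIs in graft smooth muscle, and their part in its PPARG, PTGER4 and ALOX5AP values was not tested. The prostaglandin D2 receptors PTGDR and PTGDR2 were measured at the required level in T or NK cells alone, at 13.6 and 6.10 CPM in the native artery and 8.23 and 16.5 CPM in the graft.

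The list of the leukotriene arm had 7 matched genes, among them ALOX12, which is not the lipoxygenase of leukotriene synthesis. ALOX12 was higher in graft endothelium (75.3 against 10.7 CPM) and in graft smooth muscle (51.2 against 7.94 CPM, the latter from 6 UMIs). In endothelium ALOX5 and ALOX5AP had too few UMIs, at 0.512 and 0.307 CPM in the graft against 1.75 and 2.35 CPM. LTA4H was 33.3 against 26.1 CPM there, within 2-fold. In macrophages CYSLTR1 and LTB4R, receptors for leukotrienes, were lower in the graft, at 7.47 against 31.5 CPM and 3.90 against 21.1 CPM. ALOX5AP was 8.63 CPM in graft smooth muscle, against 0 native UMIs.

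**Figure D4:**
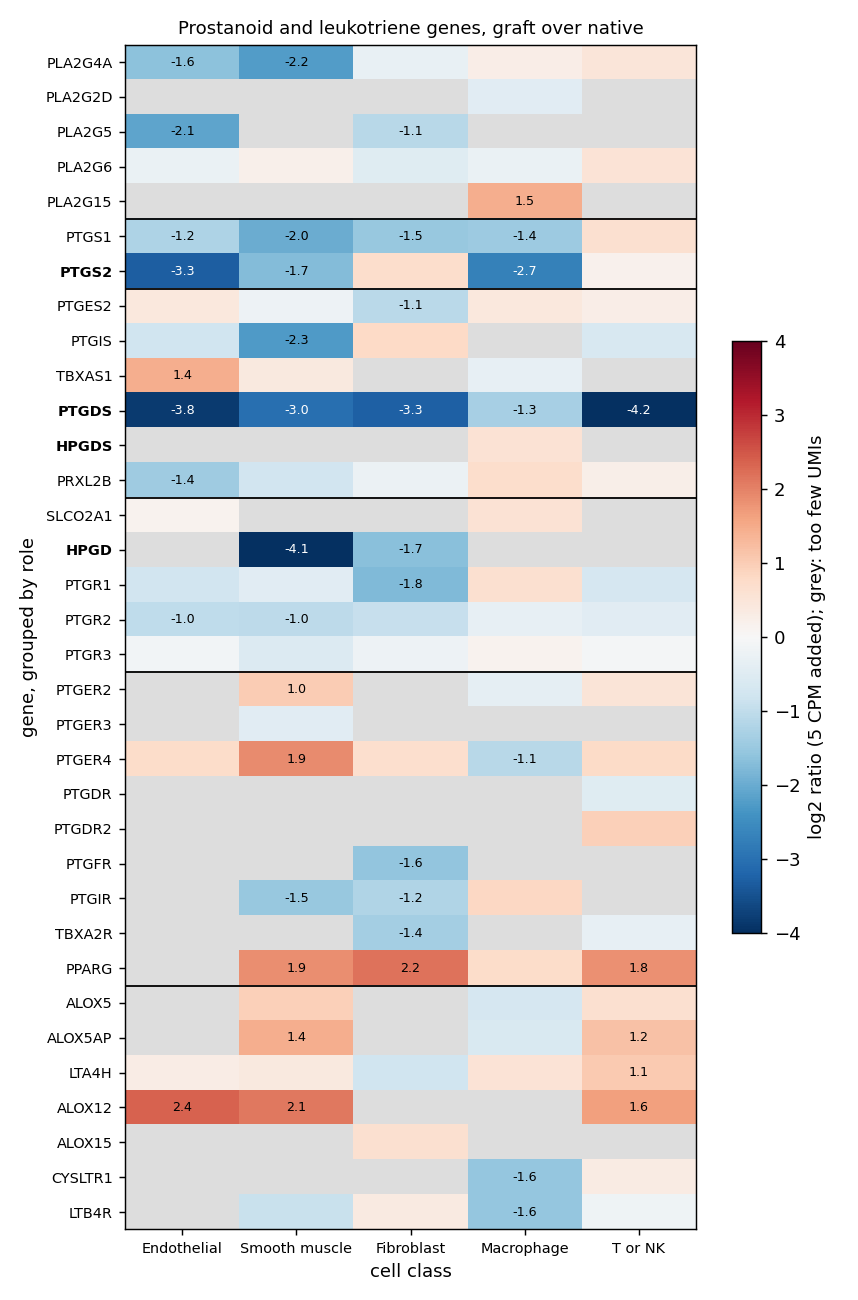
Log2 ratio of graft over native (5 CPM added) for the prostanoid and leukotriene genes with enough UMIs, in 5 classes; blue is lower and red higher in the graft, numbers are printed from 2-fold on, grey cells had too few UMIs, and the members are in bold. PTGS1 is lower in 4 of the 5 classes, and PTGDS is lower in all 5, of which fibroblasts and smooth muscle alone were read as expressing it.

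Genes with the most similar pattern were sought over 25 units, each a cluster of 1 library with at least 30 cells, among 6830 named genes with at least 50 CPM in 1 unit. The units come from just 2 libraries and share depth and free RNA, so the correlations are descriptions. PTGDS ran closest to DCN (Pearson r = 0.96), TFPI2 (0.94), GSTM5 (0.92), C1QTNF1 (0.91) and SFRP2 (0.91), all highest in the same native fibroblast cluster. In smooth muscle DCN differed from PTGDS, with 744 CPM in the native artery and 912 CPM in the graft. In fibroblasts TFPI2 was lower in the graft as PTGDS was, at 436 against 3466 CPM, while SFRP2 was 652 and 593 CPM.

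HPGD ran closest to ITIH5 (0.92), OGN (0.92), GPC3 (0.92), ELMOD1 (0.92) and ADGRD1 (0.91). OGN, a small leucine-rich proteoglycan, was 872 CPM in native and 5.75 CPM in graft smooth muscle, but 1036 and 892 CPM in fibroblasts. PTGS2 ran closest to PLCB1 (0.88), HSPB11 (0.88), SLC22A17 (0.88), SOCS3 (0.87) and BMPR1A (0.86). PLCB1, a phospholipase C, was lower in graft endothelium (304 and 67.4 CPM) and higher in graft fibroblasts (215 and 764 CPM), as PTGS2 was. HSPB11, SLC22A17, SOCS3 and BMPR1A were lower in graft endothelium too, but they were also lower in graft fibroblasts. Their native and graft fibroblast levels were 70.8 and 57.0, 57.9 and 19.96, 262 and 128, and 66.9 and 51.3 CPM. HPGDS ran closest to SCAMP5 (0.92), PPT1 (0.90), VNN1 (0.89), TFEC (0.88) and RELL1 (0.88), which peaked in the unnamed clusters led by LYVE1 or by ACP5. Among the members, PTGDS and HPGD were the closest pair (0.79), followed by PTGS2 with PTGDS (0.59), and HPGDS ran against the other 3 (-0.14 to -0.28).

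**Figure D5:**
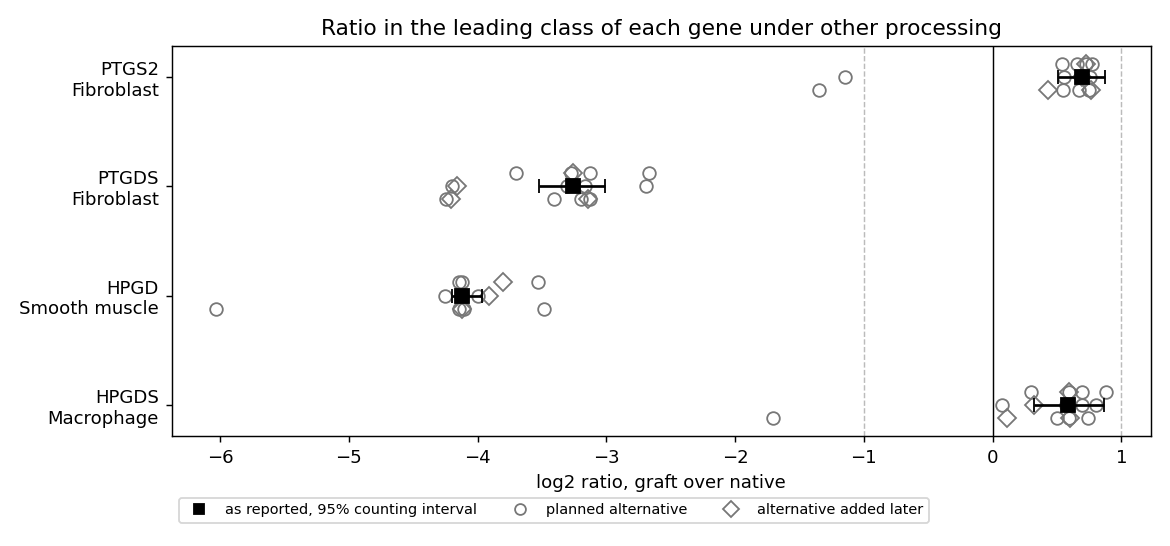
Log2 ratio of graft over native for each gene in its leading class, as reported (black square, with its 95% counting interval) and under other processing (grey), with dashed lines at 2-fold. PTGDS stays beyond 2-fold lower in all 16 alternatives, and HPGD in the 13 that gave a value. With each library clustered by itself HPGD gave no value. PTGS2 and HPGDS, reported at 0.69 and 0.59, reach -1.34 and -1.70 when cells are assigned in other ways.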

How the data were processed

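Droplet-based single-cell RNA sequencing gave 1 native artery and 1 graft library, of 11371 and 1229 barcodes with 43183715 and 36238351 UMIs. The deposited values are whole-number UMI counts per gene and barcode in filtered matrices from Cell Ranger 7.2.0, per the file headers; the submitters' processing notes also list Seurat 5.0.0, R 4.3.3 and bcl2fastq 2.20.0.422 without a role. The genome build is not given in the sources used here, so no coordinates are printed, and no sequences were used.

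Barcodes with under 200 genes or over 20% mitochondrial UMIs (13 genes) were removed, 266 native and 143 graft. Scrublet marked 0 native and 3 graft barcodes at its own threshold, too few to work, so the highest scores were removed at 0.8% per 1000 barcodes, 1034 native and 12 graft barcodes, some under both limits. Kept cells were clustered together in scanpy 1.11.5 (Leiden, resolution 1, 2000 variable genes, 30 components, 15 neighbours, no integration) without the pathway genes. Clusters were named from marker lists and stayed unnamed with under 3 raised markers or conflicting ones; the pericyte list was dropped from naming after the clusters were seen, because it shares its genes with smooth muscle. Doublets may remain among deep cells. UMIs were summed per class and library. Intervals are exact (Poisson for levels, conditional binomial for ratios, Clopper-Pearson for shares), at 95% and for counting error only; UMIs of 1 cell are not independent. A level of 0 is bounded at 3 counts. The ratio table was tested on simulated data.

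Named genes are the members, the measured pathway genes and, for each member, the 5 genes most similar over clusters. A member's leading class is the class of at least 20 cells in both libraries with the highest mean CPM. Members and lists were chosen with earlier results of these data known. Alternatives covered cell filters, clustering, naming, depth and scaling.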

Additional observations from a re-analysis of the deposited data

Results flagged for a closer look

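PTGS2 differed in direction between classes under the same contrast of graft over native. Its log2 ratio was 0.69 in fibroblast-like cells, with an interval above 0, but -3.29 in endothelial-like, -1.72 in smooth muscle-like and -2.69 in macrophage-like cells, with intervals below 0. Each class had 1 library per tissue, so the difference between classes was not tested. The fibroblast value rests on 28 graft cells, and it turned to -1.15 and -1.34 when fibroblasts were taken from each library's own clusters or from each cell's own markers.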

How the results depend on the processing

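A total of 15 ratios of a member in a class were recomputed under 12 alternatives and 4 more chosen after the data were seen. Of the 10 ratios beyond 2-fold, all 10 kept their direction wherever a value could be had, and 7 stayed beyond 2-fold throughout; the exceptions were PTGS2 in endothelium (-0.25 within the shared cluster) and macrophages (-0.43 within it and -0.44 without doublet removal), and PTGDS in macrophages. The cause was not tested. Smooth muscle gave no value with each library clustered by itself, with cells rich in other classes' markers left out, or within a shared cluster, since under 20 cells were left. In the leading classes, PTGS2 in fibroblasts (0.69) became -1.15 with each library clustered by itself, -1.34 with cells assigned by their own markers and 0.43 without the richest cell of each library. PTGDS in fibroblasts (-3.26) became -4.20, -4.25 and -4.16 under the same 3 settings, -2.69 thinned to 1000 UMIs, -3.70 in cells of at least 5000 UMIs, -2.67 with equal weight for each cell and -4.20 within the shared cluster. HPGD in smooth muscle (-4.12) became -3.53 thinned, -4.25 in cells of at least 5000 UMIs, -3.48 with equal weight, -6.03 with 1 CPM added, -3.80 with mast-like cells left in their clusters and -3.91 without the richest cells. HPGDS in macrophages (0.59) became 0.0757 without doublet removal, where 36 graft cells kept the name, -1.70 with each library clustered by itself, 0.30 by own markers, 0.88 with the pathway genes kept in the clustering and 0.11 within the shared cluster. PTGS2 in T or NK cells (0.18) ranged from -2.89 with equal weight for each cell to 1.52 in cells of at least 5000 UMIs. The native level was 112 CPM in the former and 12.0 CPM in the latter, and the graft level 10.8 and 43.9 CPM. In the graft 1 cell held 19 of the class's 23 UMIs. No paired analysis was possible because each tissue has 1 library. Depth limits HPGD and HPGDS in particular, which had 27 and 456 UMIs in all graft cells and 549 and 190 in all native cells.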
